A study of Homo sapiens with 26 samples.

Results

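The proteasome is the protease that degrades most ubiquitin-tagged proteins in a cell, and its subunits are encoded by genes whose symbols begin with PSMA to PSMF. All symbols of the form PSM, a letter from A to F and a number were taken from the count tables, which gave 43 genes out of 22690 genes listed in any of the 3 tables. All 43 were listed for Biowire macrophages and for cardiomyocytes, and 42 for the digested controls, where PSMA8 was not analysed. The expression of these genes was followed through 26 RNA-seq libraries in 8 groups. Biowires are engineered human cardiac microtissues. The macrophages (MF) were made from wild-type hES2 embryonic stem cells and sorted on day 14 from Biowires of MF alone, of FB and MF, or of CM, FB and MF, with 3 libraries each. CM are cardiomyocytes, and FB are cells that the labels name by this abbreviation only. Digested controls were macrophages of the same hES2 line in the same 3 combinations, labelled without a culture day, also with 3 libraries each. A digestion of 40 minutes is given for all 8 groups. Cardiomyocytes came from the wild-type ESI17 line, from CM+FB Biowires and from CM+FB+MF Biowires, were sorted on day 3, and had 4 libraries each. All groups passed through a digestion mix with flavopiridol, an inhibitor of transcription, and a stain for CD14 and CD45 before sorting. Each cell type came from a single stem cell line.

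In the 26S proteasome, 2 outer rings of alpha subunits and 2 inner rings of beta subunits form the 20S core, and the 19S particle on its end binds ubiquitin, unfolds the substrate with ATPases and feeds it in. PSMB5, PSMB6 and PSMB7 encode the beta subunits that cut peptide bonds in most cells. In immune cells and after exposure to interferon, newly built cores can take up PSMB8, PSMB9 and PSMB10 in their place, which gives the immunoproteasome, known for its output of peptides for MHC class I. PSME1 and PSME2 encode PA28, an interferon-inducible cap of the core, while PSME3 and PSME4 encode the caps PA28gamma and PA200. Macrophages are known for a high immunoproteasome content, and cardiomyocytes depend on proteasomes for the turnover of sarcomere proteins.

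Libraries held 6983800 to 13665322 counts in the macrophage tables and 12604684 to 30936910 counts in the cardiomyocyte table. The shallowest cardiomyocyte library was the fourth of CM+FB+MF. Summed macrophage and cardiomyocyte markers followed the labels. The 20 macrophage markers had 13642 to 22502 CPM (counts per 1000000 counts of the library) in Biowire macrophages. The 20 cardiomyocyte markers had 144046 to 161922 CPM in CM+FB cardiomyocytes. Fibroblast markers were present in the cardiomyocyte libraries too, at 3839 to 6544 CPM without macrophages and 4233 to 7684 CPM with them. Their sum in Biowire macrophages was 527 to 648 CPM in MF alone, 670 to 765 CPM in FB+MF and 403 to 486 CPM in CM+FB+MF. The part of fibroblast RNA in the proteasome values was not tested. Sorted macrophages from CM+FB+MF Biowires also carried cardiomyocyte markers at 1282 to 3014 CPM, against 49.4 to 79.0 CPM in MF alone, where 7 of 19 listed markers, TNNT2 among them, were at 0 in every library. The labels do not say whether the replicates of a group are independent cultures, and the p-values therefore measure a spread between libraries that may be technical. In sorted bulk RNA, fewer cells of a type and less RNA per cell cannot be told apart.

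Nearly all proteasome genes were measured in every group. Of the 43 genes, 42 passed the filter on low counts in each fit. PSMA8, a testis-specific alpha subunit, did not pass, with 8 counts in 1 FB+MF library, 2 counts in 1 CM+FB library and 0 in the others that list it. PSMB11, the thymus-specific beta subunit, was not analysed here. Per kilobase of exon, the highest mean level in Biowire MF macrophages was that of the alpha subunit gene PSMA7, at 98.9 CPM per kilobase, followed by PSMB6 at 77.9. In CM+FB cardiomyocytes PSMB6 came first at 51.4 CPM per kilobase, followed by PSMA7 at 49.3. The lowest of the genes that passed in Biowire MF macrophages was PSMD5, a chaperone of 19S assembly, at 0.44 CPM per kilobase, and the lowest in CM+FB cardiomyocytes was PSMB9 at 0.25. These lengths come from another annotation than the one used for counting.

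The summed level of all proteasome genes was 3237, 3602 and 3668 CPM in the Biowire MF libraries and 4033, 3714 and 3478 CPM in the FB+MF libraries. In CM+FB+MF macrophages it was 2688, 2743 and 3047 CPM, below all 6 libraries of the other Biowire groups. The 9 digested libraries lay between 2857 and 3071 CPM, with group means of 2938, 2961 and 2948 CPM. Cardiomyocytes had 2526 to 2861 CPM without macrophages and 2649 to 3019 CPM with them, so these groups overlapped. Each table is scaled by its own library totals, and sums over chosen genes were not tested.

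**Figure D1:**
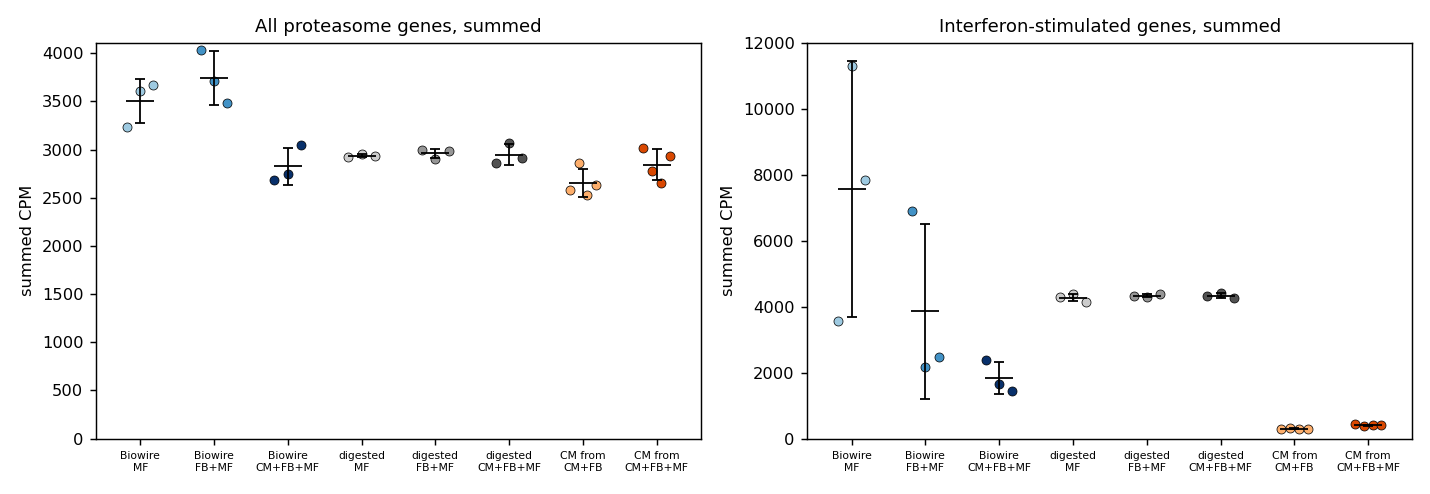
Summed CPM per library of all proteasome genes (left) and of 34 interferon-stimulated genes (right) in the 8 groups; points are libraries, horizontal marks are means and error bars are SD (n = 3, cardiomyocytes n = 4). The CM+FB+MF Biowire macrophages have the lowest proteasome sums of the Biowire macrophages, 2688 to 3047 CPM, and the interferon-stimulated sum of Biowire MF spans 3569 to 11310 CPM.

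The first question was how Biowire macrophages differed by the cells they shared the tissue with. Macrophages from CM+FB+MF Biowires had lower transcript levels of 19 of the 42 proteasome genes than macrophages from MF Biowires, and of 25 of 42 than those from FB+MF Biowires, and higher levels of none in either comparison (edgeR quasi-likelihood test, Benjamini-Hochberg adjusted p under 0.05). Against MF, 37.6% of the 13952 genes tested passed the same threshold, 19.8% of them all as lower and 17.8% as higher. Against FB+MF, 35.5% passed, 19.1% as lower and 16.4% as higher. The median log2 fold change of the proteasome genes was -0.31 against MF and -0.39 against FB+MF, beside medians of 0.00 and -0.00 over all genes tested. DESeq2 called 18 lower and 25 lower, and none higher. FB+MF against MF gave 0 calls among the proteasome genes by edgeR, where 6.16% of all genes passed, 4.03% as higher and 2.14% as lower, with 6 at an unadjusted p under 0.05 and 0 by DESeq2. The share of all genes at that unadjusted p is not given here, so the 6 genes have no background beside them. The median log2 difference of the proteasome genes in FB+MF against MF was 0.12. The FB+MF libraries lay wholly above the MF libraries for 9 proteasome genes, beside 11.5% of all genes, and wholly below for none, beside 12.5%.

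**Figure D2:**
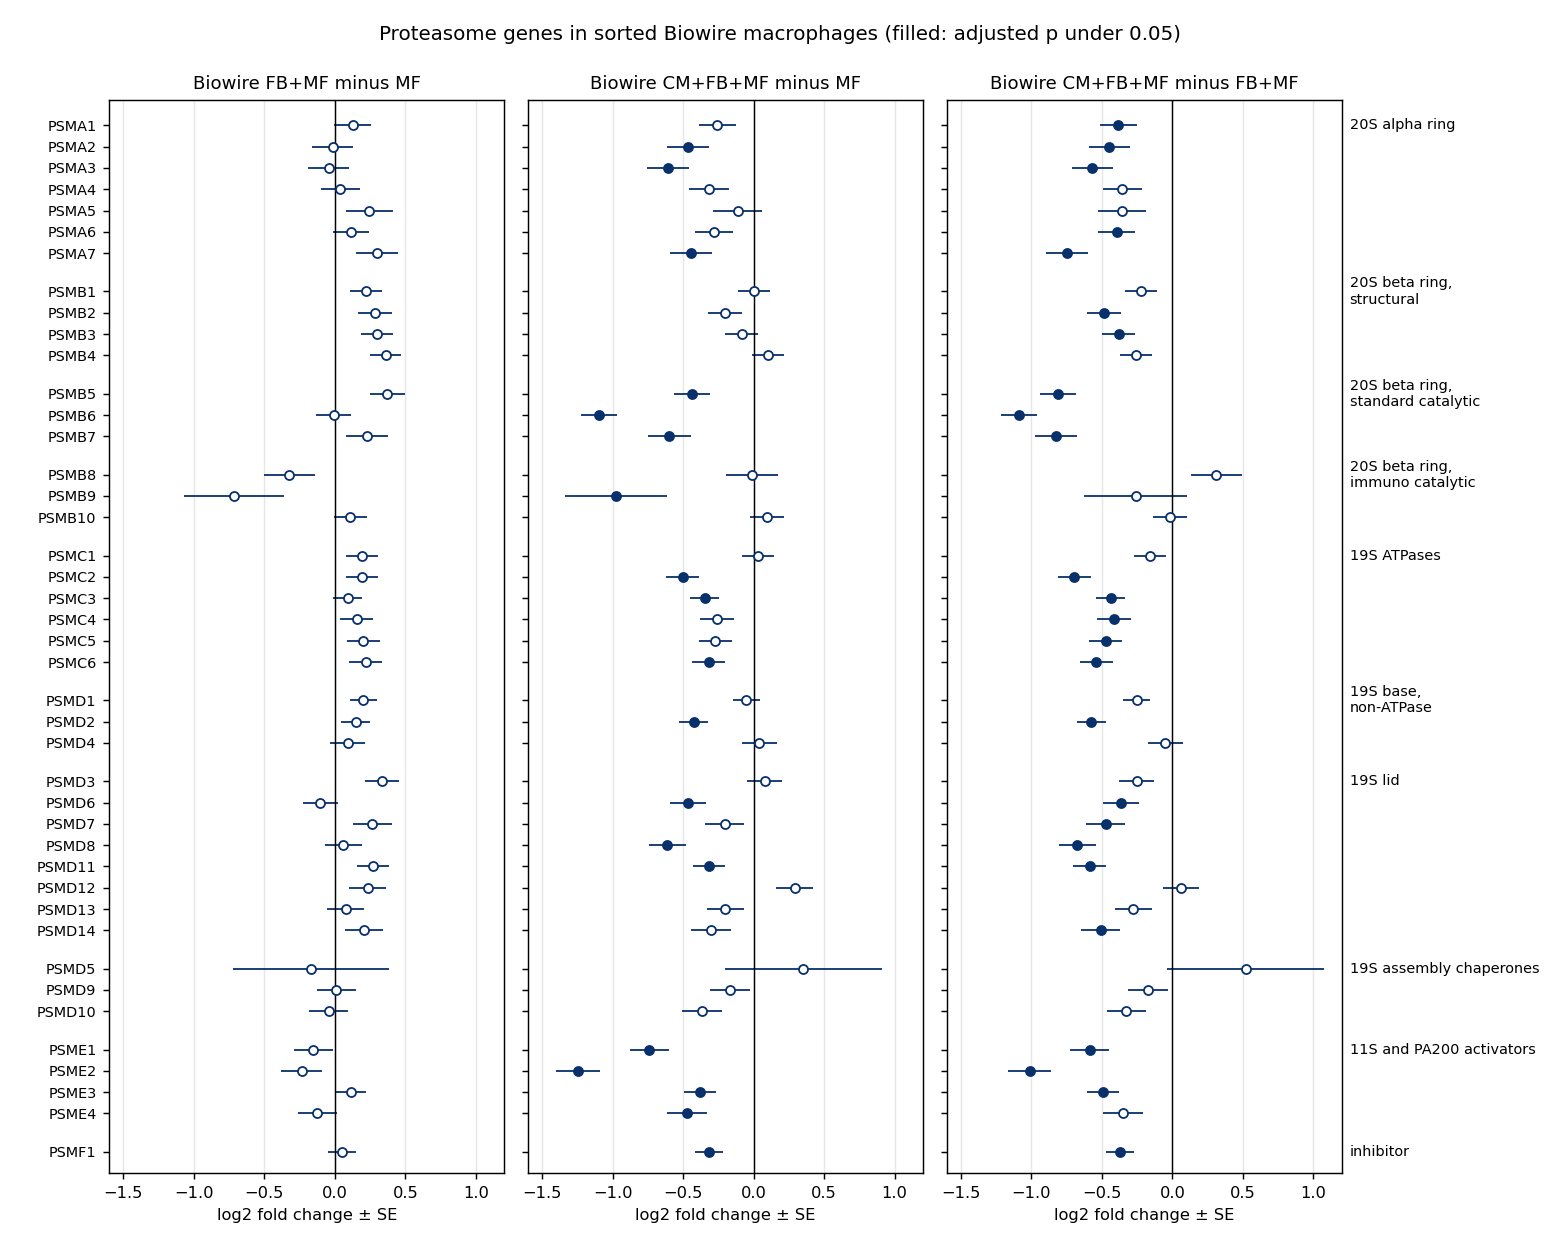
Log2 fold change with its standard error for the 42 tested proteasome genes, grouped by their place in the complex, in 3 comparisons of Biowire macrophages (3 libraries per group). Filled points passed adjusted p = 0.05: 0 in FB+MF minus MF, 19 in CM+FB+MF minus MF and 25 in CM+FB+MF minus FB+MF, all to the left of 0.

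All 3 standard catalytic subunit genes were lower in both comparisons. PSMB6, which encodes the beta1 subunit with caspase-like activity, was at 116, 105 and 118 CPM in the MF libraries, 124, 106 and 97.4 CPM in the FB+MF libraries, and 48.0, 58.6 and 52.3 CPM in the CM+FB+MF libraries. The CM+FB+MF libraries were the lowest 3, and did not overlap either other group. The log2 fold change of PSMB6 was -1.10 ± 0.13 (SE, adjusted p = 1.33e-05) against MF and -1.09 ± 0.13 (adjusted p = 2.09e-05) against FB+MF by edgeR, the smallest adjusted p of all proteasome genes in both.

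PSMB5, the chymotrypsin-like beta5 subunit, was at 42.0, 48.3 and 46.2 CPM with MF alone, 63.6, 54.4 and 54.4 CPM with FB, and 31.1, 37.2 and 32.6 CPM with CM and FB. The 3 groups did not overlap, with FB+MF highest and CM+FB+MF lowest. Its log2 fold change was -0.44 ± 0.13 (adjusted p = 0.0147) against MF and -0.81 ± 0.13 (adjusted p = 0.000267) against FB+MF. The rise of 0.37 ± 0.12 in log2 from MF to FB+MF did not pass (adjusted p = 0.109). The call of PSMB5 against MF was lost with a correction for transcript length (adjusted p = 0.0748), without the second MF library (0.0602) and without the third CM+FB+MF library (0.0502).

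PSMB7, the trypsin-like beta2 subunit, was at 44.8, 58.0 and 67.7 CPM with MF alone, 65.5, 68.0 and 61.0 CPM with FB, and 30.4, 41.8 and 40.7 CPM with CM and FB. The highest CM+FB+MF library was below the lowest MF library. The log2 fold change of PSMB7 was -0.60 ± 0.15 (adjusted p = 0.00645) against MF and -0.83 ± 0.15 (adjusted p = 0.000828) against FB+MF.

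The immunoproteasome subunits did not move as a group. PSMB8 was at 28.8, 45.2 and 39.3 CPM in MF libraries, 34.9, 25.8 and 27.5 CPM in FB+MF libraries, and 43.0, 32.7 and 36.9 CPM in CM+FB+MF libraries. These ranges overlapped, and the log2 differences of CM+FB+MF were -0.01 ± 0.18 (adjusted p = 0.967) against MF and 0.31 ± 0.18 (adjusted p = 0.205) against FB+MF. PSMB10 lay between 53.9 and 65.4 CPM in all 9 libraries, with differences of 0.09 ± 0.12 (adjusted p = 0.579) and -0.02 ± 0.12 (adjusted p = 0.934). The values of PSMB8 against MF and of PSMB10 against FB+MF lie close to 0, and their sign turned under other scalings.

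PSMB9 varied most between MF libraries, at 7.50, 26.1 and 19.03 CPM. It was at 13.4, 8.53 and 9.29 CPM in FB+MF libraries and at 6.87, 10.7 and 9.31 CPM in CM+FB+MF libraries. The first MF library lay within the CM+FB+MF range and the other two above it. Its log2 fold change of -0.97 ± 0.36 (adjusted p = 0.0485) in CM+FB+MF against MF just passed, and the call was lost under 13 alternatives, with -0.56 (adjusted p = 0.271) without the second MF library. The summed level of 34 interferon-stimulated genes was likewise lowest in the first MF library and highest in the second, at 3569, 11310 and 7853 CPM. It was 6918, 2178 and 2483 CPM in FB+MF and 2397, 1666 and 1454 CPM in CM+FB+MF. There, 30 of the 34 genes were lower than in MF and none higher, beside 19.8% and 17.8% of all genes. The part of these levels in the PSMB9 values was not tested.

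**Figure D3:**
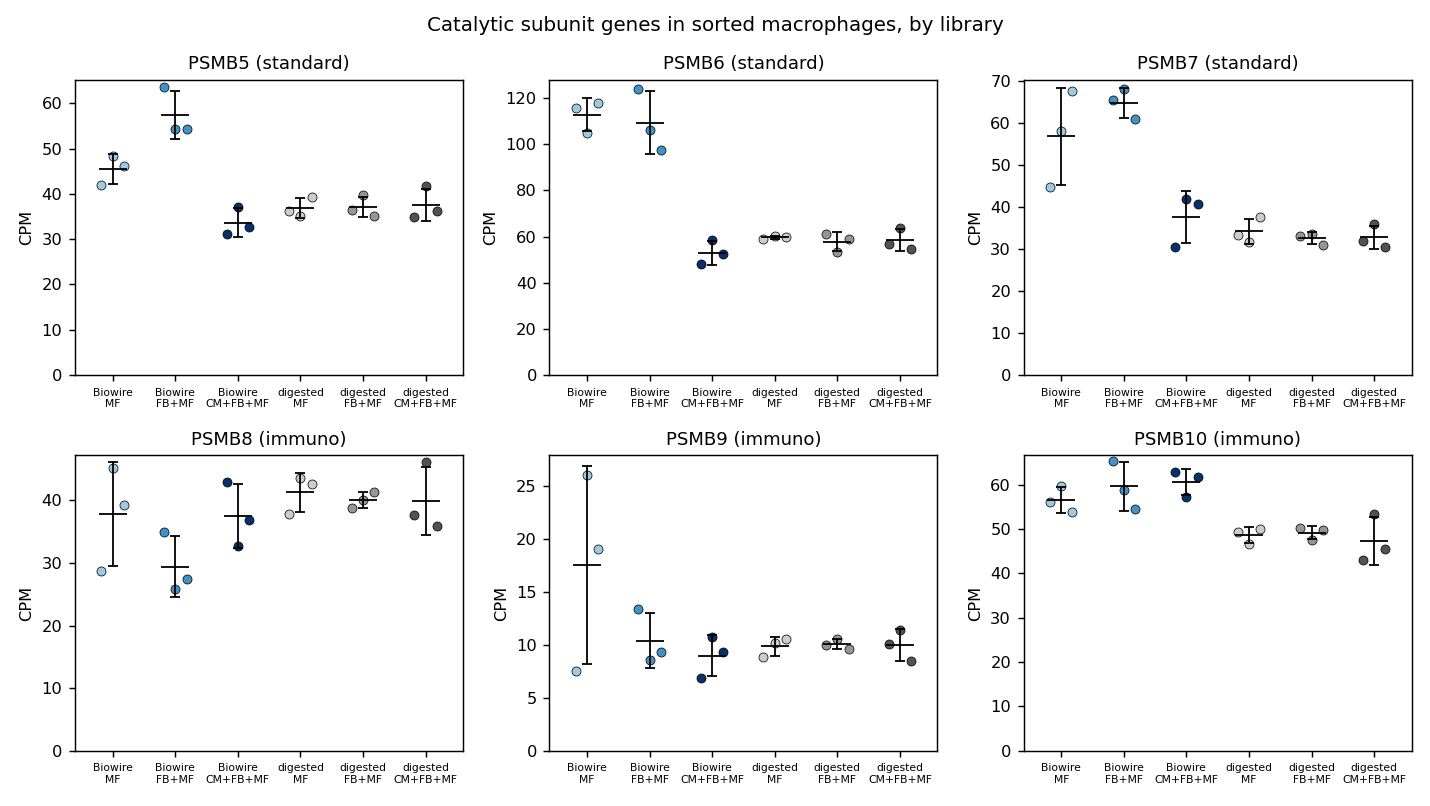
CPM per library of the 3 standard (top) and 3 immuno (bottom) catalytic subunit genes in Biowire and digested macrophages; points are libraries, marks are means and error bars are SD (n = 3). PSMB6 falls from 105 to 118 CPM in Biowire MF to 48.0 to 58.6 CPM in Biowire CM+FB+MF, a range that overlaps the digested groups, while PSMB8 and PSMB10 overlap between the MF and CM+FB+MF Biowire groups.

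All 4 genes of the activating caps were lower in CM+FB+MF than in MF macrophages. PSME2, the PA28 beta subunit, was at 47.9, 62.3 and 54.3 CPM with MF alone, 52.0, 46.2 and 38.1 CPM with FB, and 24.2, 23.6 and 21.6 CPM with CM and FB. The CM+FB+MF libraries did not overlap the others, and PSME2 had the largest fall of the proteasome genes against MF, -1.25 ± 0.15 in log2 (adjusted p = 2.46e-05). Against FB+MF it was -1.01 ± 0.15 (adjusted p = 0.000206).

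PSME1, the PA28 alpha subunit, was at 102, 128 and 122 CPM with MF alone, 119, 101 and 88.8 CPM with FB, and 62.9, 65.8 and 83.3 CPM with CM and FB, again with no overlap. Its log2 fold changes were -0.74 ± 0.14 (adjusted p = 0.000935) and -0.59 ± 0.14 (adjusted p = 0.00538). PSME3, which forms the nuclear cap PA28gamma, changed by -0.38 ± 0.11 (adjusted p = 0.0166) and -0.49 ± 0.11 (adjusted p = 0.00415). PSME4 (PA200) was lower against MF by edgeR, at -0.47 ± 0.14 (adjusted p = 0.0178), and did not pass against FB+MF, at -0.35 ± 0.14 (adjusted p = 0.0716). Against FB+MF, PSME4 passed with the replicate number as a block (adjusted p = 0.0369), without the filter (0.0368), with a length correction (0.0336) and without the second CM+FB+MF library (0.0326). The inhibitor gene PSMF1, whose product PI31 was named for blocking the 20S core in vitro, was at -0.32 ± 0.10 (adjusted p = 0.0227) and -0.37 ± 0.10 (adjusted p = 0.0113). The calls against MF of PSME3, PSME4 and PSMF1 were each lost when 1 of several single libraries was left out, at adjusted p of 0.0522 to 0.0898 for PSME3, 0.0551 and 0.0649 for PSME4, and 0.0908 and 0.0929 for PSMF1. The call of PSMF1 against FB+MF was lost without the third CM+FB+MF library (adjusted p = 0.055).

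The PA28 and immunoproteasome genes are interferon targets, so the other 37 tested genes were also counted without them. Of these, 16 were lower against MF and 23 against FB+MF, beside 19.8% and 19.1% of all genes. Their medians were -0.30 and -0.39 in log2.

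In the alpha ring, which gates the entry to the core, 3 of 7 tested genes were lower against MF and 5 of 7 against FB+MF, beside 19.8% and 19.1% of all genes lower, the background for the subunit groups that follow as well. PSMA3 had the smallest adjusted p of the ring against MF, at 52.3, 61.5 and 64.1 CPM with MF alone and 31.7, 39.2 and 46.4 CPM with CM and FB (-0.61 ± 0.15 in log2, adjusted p = 0.00511). PSMA2 (-0.46) and PSMA7 (-0.44) also passed against MF. None of the 4 structural beta genes PSMB1 to PSMB4 passed against MF, where their log2 values ran from -0.20 for PSMB2 to 0.10 for PSMB4. Against FB+MF, PSMB2 (-0.48) and PSMB3 (-0.38) were lower.

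Of the 6 ATPase genes that encode the unfolding ring of the 19S base, 3 were lower against MF and 5 against FB+MF. PSMC2 was at 119, 125 and 120 CPM with MF alone, 143, 147 and 116 CPM with FB, and 85.3, 81.0 and 91.8 CPM with CM and FB. Its CM+FB+MF libraries were below all others, with log2 fold changes of -0.50 ± 0.12 (adjusted p = 0.0036) and -0.70 ± 0.12 (adjusted p = 0.000413). PSMC1 stood at the other end of the ATPases, at 0.03 against MF and -0.16 against FB+MF, and passed in neither.

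Among the other base genes PSMD1, PSMD2 and PSMD4, the scaffold gene PSMD2 was the one that passed. It was at 224, 199 and 222 CPM with MF alone, 254, 220 and 224 CPM with FB, and 158, 164 and 160 CPM with CM and FB. There was no overlap, and the log2 fold changes were -0.43 ± 0.10 (adjusted p = 0.00513) and -0.57 ± 0.10 (adjusted p = 0.000756). PSMD4, a ubiquitin receptor, was at 0.04 ± 0.12 and -0.05 ± 0.12 and passed in neither.

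The lid removes ubiquitin chains through PSMD14 and surrounds it with structural subunits. Of its 8 genes, PSMD6, PSMD8 and PSMD11 were lower against MF, and these and PSMD7 and PSMD14 were lower against FB+MF. PSMD8 was at 187, 202 and 231 CPM with MF alone, 247, 190 and 193 CPM with FB, and 136, 120 and 151 CPM with CM and FB (-0.61 ± 0.13 in log2 against MF, adjusted p = 0.00205). PSMD12 went the other way against MF without passing, at 37.0, 42.4 and 42.1 CPM with MF alone and 51.9, 45.8 and 51.5 CPM with CM and FB (0.29 ± 0.13, adjusted p = 0.0927). It was the 1 gene whose CM+FB+MF libraries all lay above the MF libraries, a pattern that 24.3% of all tested genes showed, while 19 proteasome genes and 24.6% of all genes lay wholly below. Against FB+MF, 26 proteasome genes lay wholly below, beside 23.5% of all genes, and none wholly above, beside 24.4%. None of the 3 chaperones of 19S assembly, PSMD5, PSMD9 and PSMD10, passed in any Biowire comparison. PSMD5 had 1.21 to 3.87 CPM in the 9 libraries, and its SE of 0.56 in log2 was the widest of the set against MF.

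The same Biowire comparison of CM+FB+MF with MF was read for genes around the proteasome, with 19.8% of all genes lower and 17.8% higher as the background for each count. Of 6 chaperones and helpers of 20S assembly, PSMG1 (-1.15 ± 0.19, adjusted p = 0.00035), POMP (-0.60 ± 0.12, adjusted p = 0.0016) and PSMG4 (-0.93 ± 0.32, adjusted p = 0.035) were lower by edgeR, and none was higher. Of 10 proteasome-associated genes, 3 were lower, among them AKIRIN2 (-1.01 ± 0.12), which encodes an adaptor for nuclear import of proteasomes, and ZFAND5 (-0.50 ± 0.13). AKIRIN2 was also lower in FB+MF than in MF (-0.47 ± 0.12, adjusted p = 0.029). Of 6 genes for ubiquitin and its activating enzymes, the polyubiquitin gene UBB was lower (-1.17 ± 0.13) and UBA6, which encodes an E1 enzyme, was higher (0.98 ± 0.14). Of 10 genes around NFE2L1, the transcription factor known to restore proteasome gene expression, 4 were lower, with DDI2 (-0.81 ± 0.12), the protease that activates NFE2L1, and MAFF (-1.35 ± 0.22) at the smallest adjusted p. Of 13 ubiquitin shuttle and p97 genes, 1 was lower and none higher. Of 12 class I presentation genes, 7 were lower, among them CALR (-0.72 ± 0.13) and TAPBP (-0.64 ± 0.13), and HLA-C was higher (0.47 ± 0.14).

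Cardiomyocyte markers moved with the differences of CM+FB+MF macrophages, and none of 18 passed in FB+MF against MF. Against MF, 17 of 18 tested markers were higher in the sorted CM+FB+MF macrophages, with MYH6 at 421 ± 159 CPM (SD, n = 3) there and 0.444 ± 0.768 CPM in MF. Of 19 listed cardiomyocyte markers, 7 were at 0 in every MF library and 8 in every FB+MF library. The filter keeps a gene counted in a single group. Such markers can enter the test through the CM+FB+MF libraries alone, which partly fixes the fractions of cardiomyocyte markers called higher here. Of 20 macrophage markers, 16 were higher in CM+FB+MF than in MF and 2, CD68 and LYZ, were lower, with CD14, a protein used in the sort, at 970 ± 63.6 CPM against 115 ± 26.4 CPM. Of the 11 fibroblast markers tested, 4 were higher and 2 lower, and all 3 tested endothelial markers were lower. Against FB+MF, 17 of 18 cardiomyocyte markers were higher, 10 macrophage markers were higher and 3 lower, 1 fibroblast marker was higher and 4 lower, and 2 endothelial markers were lower. The part of these shifts in the proteasome values was not tested.

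The digested controls hold the same cell combinations, labelled without a culture day. None of the 42 proteasome genes passed in any of the 3 digested comparisons by edgeR, with 0 at an unadjusted p under 0.05 and 0 by DESeq2 in each. The share of all genes at that unadjusted p is not given here either. Of all 12960 genes tested, 1.6% passed in FB+MF against MF, 2.69% in CM+FB+MF against MF and 0.239% in CM+FB+MF against FB+MF, all of them as higher. The log2 values of the proteasome genes ran from -0.09 to 0.26 in CM+FB+MF against MF, and their median was 0.01. PSMB6 was at 58.7, 60.2 and 60.0 CPM in digested MF, 61.0, 53.4 and 59.0 CPM in FB+MF, and 56.6, 63.9 and 54.7 CPM in CM+FB+MF. PSME2 was at 37.5, 40.7 and 37.5 CPM, 42.6, 38.5 and 40.3 CPM, and 38.8, 40.0 and 40.5 CPM in the same order. Both genes overlapped between all 3 digested groups. In the digested CM+FB+MF libraries, 14 of 15 tested cardiomyocyte markers and 12 of 12 fibroblast markers were higher than in digested MF, while none of 20 macrophage markers and none of 34 interferon-stimulated genes passed. In digested MF, 9 of 20 listed cardiomyocyte markers and 6 of 16 fibroblast markers were at 0 in every library. Such markers can pass the filter through the other groups alone, which partly fixes these 2 fractions.

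The difference between the Biowire and the digested contrast was tested directly in 1 model of all 18 macrophage libraries. For CM+FB+MF against MF, 12 of 42 proteasome genes had a lower log2 difference in Biowires than in digested controls, beside 16.8% of 14381 genes lower and 31.2% passing in either direction. For CM+FB+MF against FB+MF it was 21 of 42, beside 15.1% lower and 28.4% in either direction, and for FB+MF against MF 0 of 42, beside 4.84%, 2.72% higher and 2.12% lower, with 3 at an unadjusted p under 0.05 and 0 by DESeq2. The share of all genes at that unadjusted p is not given here, so the 3 genes have no background beside them. No proteasome gene had a higher difference, beside 14.4% and 13.2% of all genes in the contrasts of CM+FB+MF with MF and with FB+MF. The standard catalytic genes were among those that passed in both contrasts with CM. PSMB6 had differences of -1.06 ± 0.15 (adjusted p = 2.09e-05) and -1.10 ± 0.15 (adjusted p = 1.83e-05). PSME2 had differences of -1.28 ± 0.17 (adjusted p = 7.56e-06) and -0.98 ± 0.17 (adjusted p = 0.000206). PSMB8, PSMB9 and PSMB10 passed in neither contrast. Markers moved in the same test of CM+FB+MF against MF, with 11 of 13 fibroblast markers lower, 15 of 20 macrophage markers higher and 2 lower, 4 of 18 cardiomyocyte markers higher, 3 of 3 endothelial markers lower and 27 of 34 interferon-stimulated genes lower. Against FB+MF, 3 fibroblast markers were lower, 10 macrophage markers were higher and 3 lower, 3 cardiomyocyte markers were higher, 1 endothelial marker was lower, and 6 interferon-stimulated genes were lower and 1 higher. The part of these shifts in the proteasome values was not tested.

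Biowire and digested macrophages of the same combination were also set against each other. Here the tissue, the time in culture and the table of origin cannot be told apart, and the numbers called higher and lower depend on scaling. In MF, 9 proteasome genes were higher in Biowires and 4 lower, beside 23.2% and 22.8% of all genes, 46% together. In FB+MF, 18 were higher and 5 lower, beside 23.1% and 24%, 47.1% together. In CM+FB+MF, 1 was higher and 16 lower, beside 24.4% and 26.1%, 50.5% together. With library totals alone as the scale, the splits were 21 and 2, 26 and 2, and 5 and 9, and the median over all genes moved to 0.24, 0.17 and 0.21 in log2 from 0.05, 0.02 and 0.02. Of the 3 standard catalytic genes, 2 were higher in Biowires in MF and 3 in FB+MF, while 2 were lower in CM+FB+MF. Their mean sums were 215, 232 and 124 CPM in these Biowire groups, beside 131, 127 and 129 CPM in the digested groups. The calls in CM+FB+MF were PSMB5 and PSMB6, lost in 3 and 6 alternatives, library totals alone among them (adjusted p = 0.229 and 0.262, edgeR). PSMC6, an ATPase gene, was higher in Biowires in all 3 combinations, at 0.63 ± 0.10, 0.81 ± 0.10 and 0.34 ± 0.10. PSME3 was lower in all 3, at -0.43 ± 0.09, -0.31 ± 0.09 and -0.82 ± 0.09, and so were PSMC4 at -0.44 ± 0.09, -0.28 ± 0.09 and -0.72 ± 0.09 and PSMD9 at -0.44 ± 0.11, -0.52 ± 0.11 and -0.65 ± 0.11. With library totals alone, PSME3 in FB+MF (-0.16, adjusted p = 0.124), PSMC4 in FB+MF (-0.13, adjusted p = 0.226) and PSMD9 in MF (-0.25, adjusted p = 0.0648) no longer passed in edgeR. The FB+MF call of PSMC4 was also lost without each of 3 single libraries, the second Biowire FB+MF library, the third Biowire FB+MF library and the third digested FB+MF library, at adjusted p of 0.0571 to 0.0959.

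Within a library, the balance of immuno to standard subunits of the same activity does not depend on scaling. Per kilobase, the log2 ratio of PSMB8 to PSMB5 was -1.05 ± 0.23 (SD, n = 3) in macrophages of MF Biowires, -1.74 ± 0.11 where FB were present and -0.61 ± 0.33 where CM and FB were present. The FB+MF libraries were below all MF libraries, and the MF and CM+FB+MF libraries overlapped at -0.95 and -0.86. In digested macrophages the 3 groups had means of -0.60, -0.65 and -0.68. The PSMB10 to PSMB7 ratio was -0.04 ± 0.33, -0.18 ± 0.11 and 0.65 ± 0.31 in the Biowire groups and 0.46 to 0.54 in the digested means. The CM+FB+MF libraries, from 0.40 to 0.99, were above all other Biowire libraries, which reached 0.27. The PSMB9 to PSMB6 ratio ranged from -5.03 to -3.09 in Biowire MF and from -3.89 to -3.54 in CM+FB+MF, so the latter lay inside the former. Cardiomyocytes from CM+FB Biowires had ratios of -6.78 ± 0.22 (SD, n = 4) for PSMB8 to PSMB5, -7.77 ± 0.54 for PSMB9 to PSMB6 and -1.63 ± 0.08 for PSMB10 to PSMB7, all below every macrophage library.

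**Figure D4:**
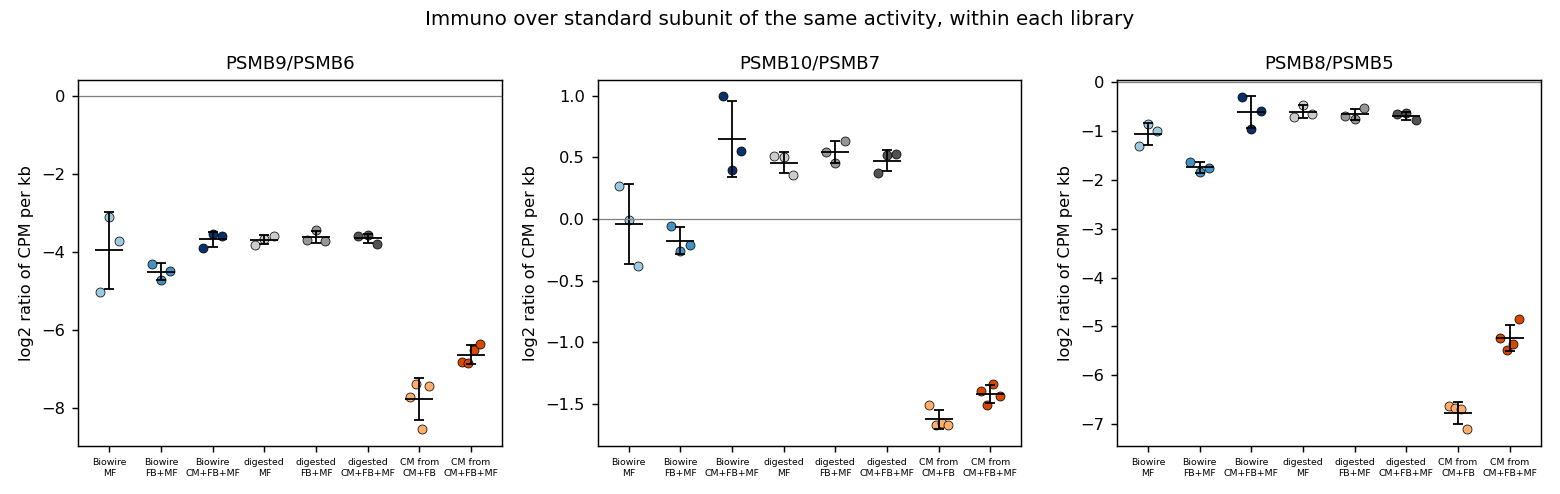
Log2 ratio, per kilobase of exon, of each immuno subunit gene to the standard subunit gene of the same activity in all 8 groups; points are libraries, marks are means, error bars are SD (n = 3, cardiomyocytes n = 4) and the grey line marks equal levels. Cardiomyocytes are lowest in all 3 panels, and with macrophages in the tissue the PSMB8 to PSMB5 ratio is -5.24 ± 0.27 in place of -6.78 ± 0.22.

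The second question was how cardiomyocytes differed by the presence of macrophages in the tissue. Day 3 cardiomyocytes from CM+FB+MF Biowires had higher levels of 4 of 42 proteasome genes than those from CM+FB Biowires, the immunoproteasome genes PSMB8 and PSMB9 and the PA28 genes PSME1 and PSME2, and none was lower (edgeR quasi-likelihood test, Benjamini-Hochberg). Of 16046 genes tested, 12.7% passed, 6.79% as higher and 5.88% as lower. DESeq2 also called 4 higher. The other 37 genes, without PSMB8, PSMB9, PSMB10, PSME1 and PSME2, gave 0 calls and a median log2 value of 0.07, beside 0.02 over all genes.

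PSMB8 was at 1.06, 1.12, 0.849 and 0.734 CPM in cardiomyocytes without macrophages and at 3.03, 2.53, 2.49 and 3.81 CPM with them. The lowest library with macrophages was above the highest without, and the log2 fold change was 1.62 ± 0.27 (adjusted p = 0.00115). These levels rest on 20 to 33 counts per library without macrophages and 48 to 89 counts with them. PSMB9 was at 0.692, 1.05, 0.389 and 0.954 CPM without and 1.60, 1.42, 1.78 and 2.22 CPM with macrophages, from 11 to 31 and 28 to 55 counts. Its groups did not overlap either. The log2 fold change of PSMB9 was 1.15 ± 0.35 (adjusted p = 0.0463), a call lost in 9 alternatives, 7 of them the omission of 1 library, at adjusted p of 0.0558 to 0.123. With the number in the column names as a replicate block, PSMB9 had an adjusted p of 0.0675.

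PSMB10 was at 14.2, 14.9, 14.0 and 13.8 CPM without and 17.0, 16.6, 17.0 and 16.7 CPM with macrophages. Its groups did not overlap, and its log2 value of 0.22 ± 0.08 did not pass (adjusted p = 0.106). Libraries with macrophages lay wholly above those without for 6 proteasome genes, which were PSMB3 and the 5 interferon targets, beside 10% of all genes. None lay wholly below, beside 7.61%.

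PSME1 was at 46.8, 59.0, 41.8 and 50.6 CPM without and 83.6, 64.7, 72.5 and 83.9 CPM with macrophages. PSME2 was at 31.2, 35.0, 31.2 and 32.3 CPM without and 46.8, 41.3, 40.6 and 44.6 CPM with them. Neither gene overlapped between the groups. Their log2 fold changes were 0.60 ± 0.11 (adjusted p = 0.00233) for PSME1 and 0.40 ± 0.07 (adjusted p = 0.00252) for PSME2. The caps PSME3 (0.07 ± 0.06, adjusted p = 0.577) and PSME4 (-0.15 ± 0.06, adjusted p = 0.141) and the inhibitor PSMF1 (0.02 ± 0.07, adjusted p = 0.906) did not pass. Neither did the standard catalytic genes PSMB5 (0.09 ± 0.08), PSMB6 (0.11 ± 0.08) and PSMB7 (0.01 ± 0.07), with adjusted p of 0.53, 0.432 and 0.94.

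**Figure D5:**
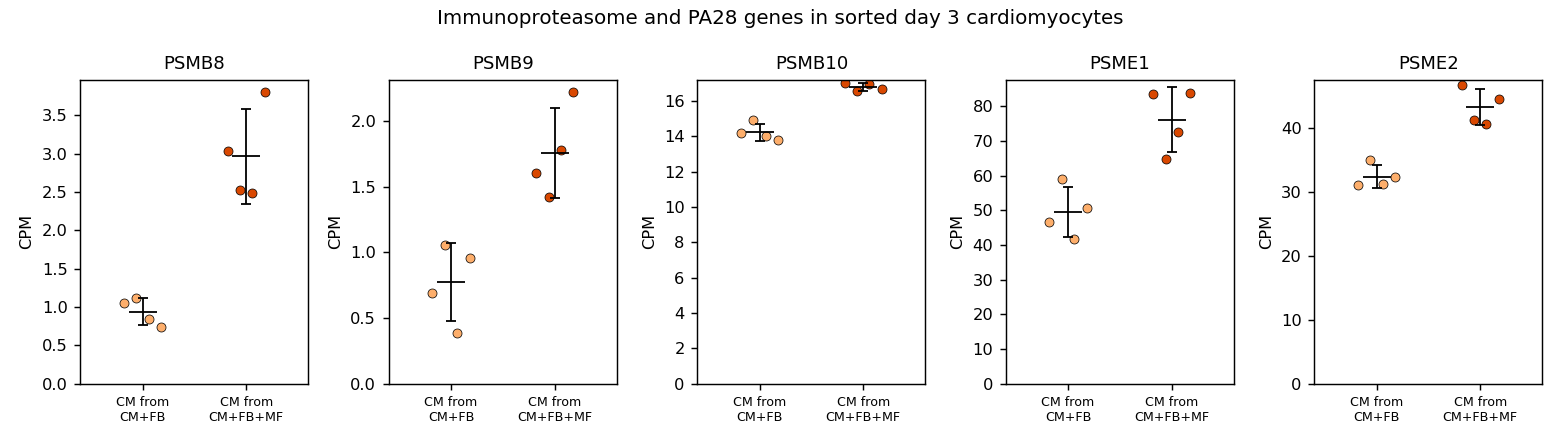
CPM per library of the 3 immunoproteasome genes and the 2 PA28 genes in day 3 cardiomyocytes from Biowires without (CM+FB) and with (CM+FB+MF) macrophages; points are libraries, marks are means and error bars are SD (n = 4). In each panel all 4 libraries with macrophages lie above all 4 without, for PSMB8 at 2.49 to 3.81 CPM against 0.734 to 1.12 CPM.

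Macrophage markers also rose in these cardiomyocyte libraries. All 15 tested markers were higher with macrophages, and the sum over the 20 listed markers was 17.6 to 22.8 CPM without and 55.6 to 114 CPM with them. C1QA and FCGR3A were at 0 in every library without macrophages. Markers this low can pass the filter through the libraries with macrophages alone, which partly fixes the fraction of tested macrophage markers called higher. Of 20 cardiomyocyte markers, 5 were lower and 1 was higher with macrophages, 2 of 15 fibroblast markers were higher, and 1 of 7 endothelial markers was lower. The mean gain of the marker sum, 58.1 CPM, equals 0.267% to 0.39% of the marker sum in the 6 macrophage groups. That share of the PSMB8 level in the same macrophage groups is 0.0861 to 0.147 CPM, beside a gain of 2.02 CPM in the cardiomyocyte libraries. Expressed against the gain of each gene, the same share is 4.25% to 7.27% for PSMB8, 2.44% to 6.94% for PSMB9, 6.18% to 8.54% for PSMB10, 0.71% to 1.72% for PSME1 and 0.569% to 1.96% for PSME2. These values take macrophages of day 14 or digested controls in place of day 3 macrophages, and the part of macrophage RNA in the gains was not tested. The macrophage levels come from other tables than the cardiomyocyte levels.

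Interferon-stimulated genes were higher with macrophages too. Their sum was 293 to 310 CPM in the 4 libraries without and 382 to 428 CPM in the 4 with macrophages. Of 28 tested, 10 were higher and 1 was lower, beside 6.79% and 5.88% of all genes, the background for the counts that follow. EPSTI1 (0.92 ± 0.08), IFIT1 (1.15 ± 0.11) and IFITM3 (0.52 ± 0.08) had the smallest adjusted p of them. Of 12 class I presentation genes, 6 were higher, led by HLA-C (0.62 ± 0.07, adjusted p = 3.9e-05), which presents peptides, TAP2 (0.86 ± 0.12, adjusted p = 0.00033), which carries them into the endoplasmic reticulum, and TAPBP (0.32 ± 0.06, adjusted p = 0.0016). None of the 6 assembly helpers, 10 proteasome-associated genes and 13 shuttle and p97 genes passed by edgeR. Of 6 genes for ubiquitin and its activating enzymes, 2 were higher and none lower, UBB (0.30 ± 0.09, adjusted p = 0.034) among the 2. Of 10 genes around NFE2L1, 2 were lower and none higher, DDI2 (-0.32 ± 0.08, adjusted p = 0.019) and MAFG (-0.49 ± 0.10, adjusted p = 0.0073).

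The promoters of these 5 genes are shown because 4 of them hold the same short motif near the start of transcription. The motif is the core of the interferon-stimulated response element, which is GAAA, any 2 bases and GAAA again, searched on both strands in 300 bases around each start (250 before to 50 after). It was found in 6 of the 38 proteasome genes with a promoter in the reference table, 15.8%, and in 4.38% of 27305 genes. The 6 were PSMB8, PSMB10, PSME1, PSME2, PSMA4 and PSMB4, and the last 2 did not pass in cardiomyocytes (0.04 ± 0.09 and 0.15 ± 0.08 in log2). The sequences are from RefSeq on build GRCh38.p14, run from 100 bases before to 20 bases after the start, and read 5′ to 3′ on the strand of the gene. Capitals mark that core on either strand and, at the left of PSME1, the core TGACNNNGC of the antioxidant response element. Of the 2 starts listed for PSMB8, the one with the motif in this stretch is shown. The stretches lie at chr6:32844028-32844147 (minus strand) for PSMB8, chr6:32854092-32854211 (plus) for PSMB9, chr16:67936831-67936950 (minus) for PSMB10, chr14:24136094-24136213 (plus) for PSME1 and chr14:24146591-24146710 (minus) for PSME2.
PSMB8: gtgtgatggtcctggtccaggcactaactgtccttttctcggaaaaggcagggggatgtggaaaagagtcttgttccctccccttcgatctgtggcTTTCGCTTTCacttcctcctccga
PSMB10: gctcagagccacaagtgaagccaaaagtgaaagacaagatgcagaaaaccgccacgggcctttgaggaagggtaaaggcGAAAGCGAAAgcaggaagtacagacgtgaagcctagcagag
PSME1: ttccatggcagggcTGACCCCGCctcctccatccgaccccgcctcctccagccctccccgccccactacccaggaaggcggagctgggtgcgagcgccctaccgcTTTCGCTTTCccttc
PSME2: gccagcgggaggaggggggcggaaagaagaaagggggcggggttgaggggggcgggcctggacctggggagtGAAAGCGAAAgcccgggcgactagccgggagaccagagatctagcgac
PSMB9: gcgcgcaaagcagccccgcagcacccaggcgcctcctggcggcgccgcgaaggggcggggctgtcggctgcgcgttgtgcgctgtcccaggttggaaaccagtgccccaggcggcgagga

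PSMB9 has no match to the interferon-stimulated core in its 300 bases, and a match to the antioxidant core 148 bases before the start, outside the printed stretch. The core of the antioxidant response element was found in 13 of 38 proteasome genes, 34.2%, and in 16.1% of all genes, and the CCAAT box in 18 of 38, 47.4%, and in 39.7%. A match is a description of the letters and was not related to binding of any factor here.

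Some of these counts are uncertain at the level of the annotation. In the GENCODE 29 annotation, exons of 13 proteasome genes share bases with another listed gene, among them PSMB8 and PSMB9 with PSMB8-AS1, PSME1 with EMC9, PSME2 with RNF31 and PSME3 with BECN1. Without a stated strand setting, reads of PSMB8 and PSMB8-AS1, of PSME1 and EMC9 and of PSME2 and RNF31 cannot be told apart where they overlap. PSMB9 and PSMB8-AS1 overlap on the same strand, as do PSMD9 and WDR66, so strand would not separate their reads there in any setting. There are 32 named pseudogenes of 12 proteasome genes, 13 of them of PSMC1, and none of these was analysed here, so counts of those 12 genes are uncertain where reads match a copy.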

How the data were processed

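RNA of sorted cells was sequenced in 26 samples. The libraries kept strand and were prepared from total RNA, per the labels. The authors deposited raw counts, whole numbers for each gene, in 3 tables (19206, 18771 and 21991 genes), and these were the values used. STAR 2.7.9a, HTSeq 0.11.0, DESeq2, R 4.3.2 and build hg19 are named in the submitters' processing notes. Whether counting used strand was not stated. In the cardiomyocyte table, 28 gene names had become dates. Columns of the digested table and of CM+FB+MF cardiomyocytes were matched by name to a group but not to single samples, so their numbers only name libraries.

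From the counts, edgeR 4.0.16 in R 4.3.3 was used (filterByExpr, TMM, quasi-likelihood F test, two-sided, Benjamini-Hochberg over all genes tested, threshold 0.05), with 1 fit per table and 1 fit of both macrophage tables on their 17919 shared genes. CPM is the count divided by the library total, times 1000000. Exon lengths are from GENCODE 29 by symbol. Alternatives were DESeq2 1.42.0, RLE, upper quartile and library-total scaling, no filter, only the compared groups, a replicate block (on column numbers outside Biowire macrophages, added later), a length correction, and each library left out. The length correction was a smooth fit (loess) on exon length in each library, given to edgeR as offsets. Named genes were the catalytic, activator and inhibitor genes always, up to 5 called members per direction with the smallest adjusted p, and up to 3 called genes of each related list; others are named to complete a subunit group. The proteasome genes and all lists were chosen with earlier results of these data known. The tests were tested on simulated data. No pair of replicates was a duplicate by chi-square (2.48 to 40.4 per degree of freedom). Depth limits low genes such as PSMB8 and PSMB9 in cardiomyocytes, where counts are 11 to 89 per library. Shares of genes with a motif were counted over genes with a 300-base promoter in the RefSeq table. PSMA7, PSMB1, PSMB6, PSMB7 and PSMD4 have no entry in it.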

Additional observations from a re-analysis of the deposited data

Results flagged for a closer look

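Differences of proteasome genes between cell combinations were not the same in Biowire and digested macrophages, by the test of the difference in edgeR. The part of the cell type marker shifts in these values was not tested. In CM+FB+MF against MF, the Biowire log2 difference minus the digested one was -0.46 for PSMB5, -1.06 for PSMB6, -0.53 for PSMB7, -0.50 for PSMC2, -0.60 for PSMD8, -0.69 for PSME1, -1.28 for PSME2, -0.39 for PSME3 and -0.33 for PSMF1. In CM+FB+MF against FB+MF it was -0.83 for PSMB5, -1.10 for PSMB6, -0.84 for PSMB7, -0.65 for PSMC2, -0.55 for PSMD2, -0.57 for PSME1, -0.98 for PSME2, -0.52 for PSME3 and -0.37 for PSMF1. In the first contrast PSMB5 lost its call in 7 alternatives, PSMB7 in 8, PSME3 in 3 and PSMF1 in 8, and in the second PSME1 in 4 and PSMF1 in 1.

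PSME3 had 69.6 CPM in the second library of CM+FB cardiomyocytes, the lowest of the group. Its gap to the next library, as a share of the group's range, was past a limit that chance exceeds in about 1 of 20 groups. All named genes and the proteasome sum were screened in both cardiomyocyte groups, so a single flag can arise by chance.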

How the results depend on the processing

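Of the 417 alternative values of the 13 counts of called genes, the 8 sums and the 24 ratios, 405 stayed within 1.5 times the count or 1 SD. For the sums and ratios, a group mean without 1 library always lies within 1 SD of the full mean. Those alternatives could only stay, so the 405 is no measure of how stable the sums and ratios are. Leaving out 1 library at a time gave 10 to 21 calls in place of 19 for Biowire CM+FB+MF against MF (10 without the second and 11 without the third MF library), 18 to 27 in place of 25 against FB+MF, 3 to 4 in place of 4 in cardiomyocytes and 0 to 1 in place of 0 for FB+MF against MF. That 1 call was PSMB9 without the first MF library (-1.04, adjusted p = 0.0348). The difference between Biowire and digested contrasts gave 7 to 17 in place of 12 (7 without the second digested CM+FB+MF library), 15 to 23 in place of 21, and 0 to 1 in place of 0. Biowire against digested MF gave 7 to 15 in place of 13 (7 without the first digested MF library) and 23 with library totals. Without the most abundant gene the sums were 2763, 2785 and 2777 CPM in the digested groups of MF alone, of FB and MF and of CM, FB and MF, and 2424 and 2602 CPM in cardiomyocytes without and with macrophages.

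Values near 0 that turned sign were PSMB6 in FB+MF against MF (0.000822 without the filter, -0.12 to 0.0756 with 1 library left out), PSMB8 in CM+FB+MF against MF (0.00938 with RLE, 0.0041 with upper quartile, 0.0098 with DESeq2, 0.0204 with length correction, -0.15 to 0.14 with 1 library left out), and PSMB10 against FB+MF (0.0117, 0.0223, 0.0241, 0.0112 and 0.124 with RLE, upper quartile, library totals, DESeq2 and length correction, -0.0925 to 0.0718 with 1 library left out). In cardiomyocytes they were PSMB7 (-0.0129 without the filter, -0.0583 with length correction, -0.0291 to 0.0416 with 1 library left out) and PSMF1 (-0.00683 without the filter, -0.023 to 0.055 with 1 library left out). The cause was not tested.

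Replicate numbers were not taken to pair the libraries, since 2 of 9, 2 of 9 and 1 of 4 same-number pairs in the Biowire, digested and cardiomyocyte tables had a correlation above 0.1, and not every library correlated best with its own number. With the replicate number as a block, the counts were 0, 18 and 26 in Biowires. Elsewhere columns match groups and not single samples, so a block on the number in the column name was chosen after seeing the data. It gave 0 in each digested contrast, 3 in cardiomyocytes, 0, 13 and 21 for the differences of contrasts, and 13, 23 and 17 for Biowire against digested.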
